A study of Mus musculus with 9 samples.

Results

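Integrins, syndecans, glypicans and tetraspanins are receptors and organisers of the cell surface, and their genes were compared between Nestin-reporter cells that were sorted from 2 brain regions of the mouse and that the labels call adult neural precursors. The set was chosen by gene symbol, with earlier results of these data known: integrin alpha and beta genes, the syndecans, the glypicans, the Tspan genes, and Cd9, Cd63, Cd81, Cd82, Cd151, Cd44 and Dag1. It held 53 of the 14477 genes of the expression table, namely 11 integrin alpha subunits, 7 integrin beta subunits, 4 syndecans, 6 glypicans, 21 tetraspanins and 4 other genes (Cd44, Dag1, and Itgb1bp1 and Itgb3bp, whose symbols match the rule but which encode intracellular proteins). A further 16 symbols that match the rule were not in the table and were not analysed here, among them Itga2, Itga10, Itga11, Itgal, Itgax, Itgb6 and Tspan8.

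Cells that fluoresced green were sorted from the dissected dentate gyrus of the hippocampus (DG, 5 libraries) or from the subventricular zone along the lateral ventricle (SVZ, 4 libraries). All mice carried the same transgene (strain B6.Cg-Tg(Nes-EGFP)1Yamm), in which regulatory sequence of Nestin, an intermediate filament gene of neural precursors, drives expression of EGFP. They were untreated and in standard housing, and the labels give no age beyond adult. The reporter sets a limit on the groups as models of neural precursors, since Nestin regulatory sequence can also be active in cells of vessel walls. Since the labels leave it unsaid whether a library is 1 animal or a pool, p-values cover the spread among the 9 libraries alone, which may be technical in part. Expression is given as log2 CPM, that is, reads relative to the total of the library after 1 read was added as a prior, and group values are mean ± SD (n = 5 in DG, n = 4 in SVZ). A log2 fold change is DG minus SVZ, with its standard error (SE), and a gene was called higher in a region when its adjusted p from limma, adjusted over all 14477 genes, was under 0.05. A value in brackets after a gene's name is its log2 fold change.

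Library totals over the listed genes were 33627909 to 41164044 reads in DG and 31126803 to 32528255 in SVZ, and all 53 genes had reads in all 9 libraries. Markers of the sorted population (Nes, Sox2 and Vim) were present in both regions, with summed levels of 273 to 349.6 CPM in DG and 359.7 to 564.7 CPM in SVZ. The libraries also held markers of other cell types. The 10 pericyte and smooth muscle markers summed to 5406 to 11212 CPM in DG and 71.35 to 168.1 CPM in SVZ. The 10 endothelial markers summed to 1150 to 2194 CPM in DG and 9.509 to 64.69 CPM in SVZ. The 5 oligodendrocyte precursor markers summed to 667.9 to 1579 CPM in DG and 31.79 to 105 CPM in SVZ. In the opposite direction, 6 neuroblast markers summed to 5341 to 7916 CPM in DG and 18877 to 22596 CPM in SVZ. None of these markers was at 0 in any library. In such bulk libraries, fewer cells of a type and less RNA of it per cell cannot be told apart. Among DG libraries, DG 5 had the lowest pericyte sum, DG 2 the highest neuroblast sum, and DG 3 stood apart in 5 markers of mature neurons (706.7 CPM against 176.5 to 225.5 CPM in the other DG libraries).

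An integrin is a pair of one alpha and one beta subunit that binds matrix proteins such as laminin, collagen, fibronectin or vitronectin outside the cell and links to actin through talin and kindlin inside it. Syndecans and glypicans are core proteins that carry heparan sulfate chains. Syndecans span the membrane and glypicans are held by a lipid anchor, and both bind growth factors and matrix. Tetraspanins have 4 membrane-spanning segments and gather integrins, proteases and other partners into membrane domains. In the adult neurogenic niches, such receptors are known for anchoring stem cells to vessels and to the laminin-rich matrix around them.

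Most of the set was higher in DG. Of the 53 genes, 39 were called higher in DG, 6 higher in SVZ and 8 were not called, where 32.9% of all genes were higher in DG, 33.7% higher in SVZ and 66.6% called either way. Those 39 genes were 73.6% of the set. The median log2 fold change of the 53 genes was 1.68, and that of all genes was -0.075 (-0.021 with TMM scaling). In 37 genes the lowest DG library exceeded the highest SVZ library (29.7% of all genes), and in 4 the highest DG library was below the lowest SVZ library (28.3% of all genes). A called difference of at least 4-fold was found in 23 genes on the DG side (43.4% of the set, against 12.4% of all genes) and in 1 gene, Sdc1, on the SVZ side (3.33% of all genes). Part of the set entered the table through 1 group alone: 8 genes (Gpc3, Itga1, Itga4, Itga7, Itga8, Itgb7, Tspan17 and Tspan33) exceeded 1 CPM in at least 3 libraries in DG only, and Gpc2 did so in SVZ only. The 8 DG-only genes are all among the 37 and the 23 genes above, a direction favoured by how they entered the table. Of the 44 genes over that level in both regions, 31 were higher in DG, 5 higher in SVZ and 8 not called. In 29 of the 44 all DG libraries lay above all SVZ libraries, and in 4 all lay below. The shares of all genes were not restricted in this way. The plot of fold changes shows that called integrins lay on the DG side only, and that syndecans, glypicans and tetraspanins held members called in both directions.

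**Figure D1:**
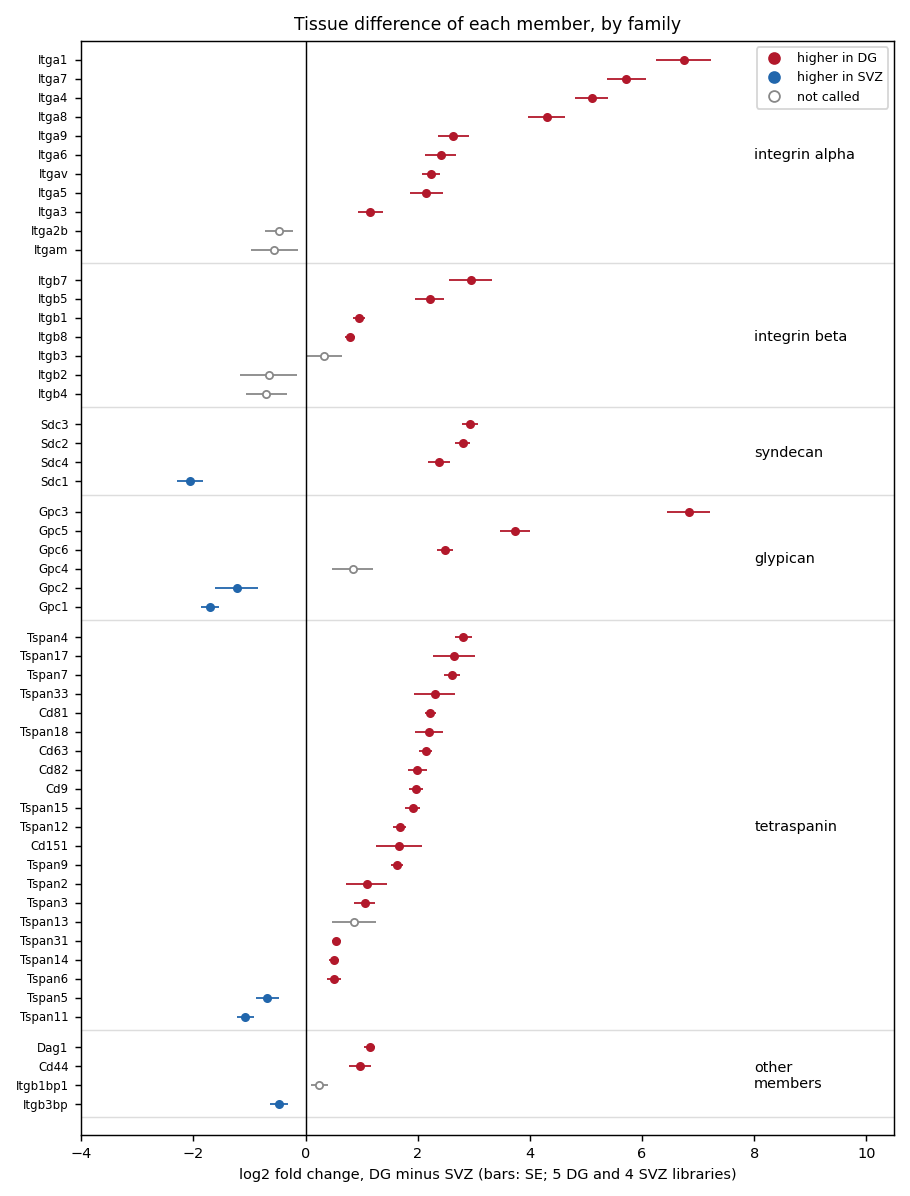
Log2 fold change (DG minus SVZ, x axis) of each of the 53 genes, grouped by family, with bars of 1 standard error; colours mark genes called higher in DG, higher in SVZ or not called by limma. Values ran from 6.83 (Gpc3) to -2.07 (Sdc1), and 39 genes were called on the DG side against 6 on the SVZ side.

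The promoter sequences of 6 members are shown because these genes mark the extremes of the comparison: Itga1, Itga4 and Gpc3, whose differences were among the 4 largest of the set, Tspan7, which had the highest read count of the set, and Sdc1 and Tspan11, which were higher in SVZ while most of their families were higher in DG. They are from RefSeq (GRCm38.p6, the mm10 build), lie just upstream of the gene start and read 5′ to 3′ on the gene's strand; those of Sdc1 and Tspan11 are cut short at the annotated start. Capitals mark each match to the GC box GGGCGG or the CCAAT box CCAAT on either strand. The windows are Gpc3 at chrX:52613975-52614174 (minus strand), Itga1 at chr13:115101965-115102164 (minus strand), Itga4 at chr2:79255226-79255425 (plus strand), Tspan7 at chrX:10484916-10485115 (plus strand), Sdc1 at chr12:8771196-8771322 (plus strand) and Tspan11 at chr6:127887422-127887588 (plus strand).
Gpc3: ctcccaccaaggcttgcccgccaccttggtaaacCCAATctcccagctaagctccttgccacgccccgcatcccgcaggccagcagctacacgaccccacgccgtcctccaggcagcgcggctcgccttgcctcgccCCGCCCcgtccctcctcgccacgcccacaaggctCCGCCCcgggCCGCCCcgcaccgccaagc
Itga1: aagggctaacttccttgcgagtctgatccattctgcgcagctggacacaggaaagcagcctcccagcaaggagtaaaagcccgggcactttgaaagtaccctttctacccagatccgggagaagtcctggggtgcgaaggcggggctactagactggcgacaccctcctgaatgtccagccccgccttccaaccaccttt
Itga4: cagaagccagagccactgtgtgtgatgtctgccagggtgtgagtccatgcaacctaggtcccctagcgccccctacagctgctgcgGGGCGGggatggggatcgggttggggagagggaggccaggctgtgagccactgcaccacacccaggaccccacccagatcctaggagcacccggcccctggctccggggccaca
Tspan7: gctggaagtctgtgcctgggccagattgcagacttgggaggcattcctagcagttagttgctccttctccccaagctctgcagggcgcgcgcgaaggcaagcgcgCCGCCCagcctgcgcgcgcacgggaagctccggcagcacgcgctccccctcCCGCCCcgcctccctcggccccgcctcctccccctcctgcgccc
Sdc1: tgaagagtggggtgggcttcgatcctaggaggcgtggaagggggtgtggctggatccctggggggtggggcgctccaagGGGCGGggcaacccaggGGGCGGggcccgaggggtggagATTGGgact
Tspan11: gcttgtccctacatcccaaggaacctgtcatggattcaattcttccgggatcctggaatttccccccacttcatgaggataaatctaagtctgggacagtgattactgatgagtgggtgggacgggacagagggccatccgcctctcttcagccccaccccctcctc

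The motifs were counted on both strands. The window of Gpc3 held 20 CpG dinucleotides and 3 GC boxes and that of Tspan7 held 19 and 2, whereas that of Itga1 held 8 CpG and that of Itga4 held 6. Within the 200 bases upstream of the start, GC boxes were found in 25 of the 41 member promoters searched (61.0%) and in 57.7% of all 10268 promoters searched. CCAAT was found in 11 of the 41 (26.8%, against 33.0% of all), and TATAAA in 1 (2.44%, against 4.4% of all). The median CpG count was 14 in both, and the median GC content was 64.5% for members and 61.5% for all promoters. These letters are a description of the windows and not of binding.

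Of the 11 integrin alpha subunits, 9 were higher in DG (81.8%, against 32.9% of all genes) and none in SVZ, with a median log2 fold change of 2.41. Among the 9, Itga1, Itga4, Itga7 and Itga8 exceeded 1 CPM in at least 3 libraries in DG only, so their direction was favoured by how they entered the table. The share of all genes was not restricted in this way. Itga1 (ENSMUSG00000042284, chromosome 13, 114953096 to 115101964, minus strand, mm10), which pairs with Itgb1 as a collagen receptor, stood at 7.10, 7.04, 6.84, 6.89 and 5.18 log2 CPM in DG 1 to 5 and 1.36, -0.80, -0.59 and -0.504 in SVZ 1 to 4. The regions did not overlap, DG 5 was the lowest of DG, and SVZ 1 was the only SVZ library above 0. The difference was 107-fold (log2 fold change 6.74, SE 0.49, adjusted p = 6.14e-07). Itga7 (ENSMUSG00000025348, chromosome 10, 128933818 to 128958282, plus strand), a laminin receptor subunit known from muscle and vessel walls, stood at 6.30, 6.13, 6.19, 5.93 and 4.80 log2 CPM in DG 1 to 5 and -0.19, -0.16, 1.08 and -0.12 in SVZ 1 to 4. Again DG 5 was the lowest DG library and no library overlapped, and the level was 52.6-fold that of SVZ (log2 fold change 5.72, SE 0.35, adjusted p = 1.79e-07). Itga4, a subunit that binds fibronectin and Vcam1 and is known from leukocytes, lies outside the rule for named genes because of its low mean and is given because its values were among the largest. It stood at 5.19, 5.11, 5.07, 5.30 and 4.18 log2 CPM in DG 1 to 5 and 0.32, 0.08, -0.90 and -0.03 in SVZ 1 to 4, 34.3-fold higher in DG (log2 fold change 5.10, SE 0.29, adjusted p = 1.21e-07), and 8.04% of its exon length overlaps that of Cerkl. All 3 genes had their lowest DG level in DG 5, the DG library with the lowest sum of pericyte markers. The highest pericyte sum was in DG 2, and Itga1 and Itga7 were highest in DG 1 and Itga4 in DG 4. The order of DG 1 and DG 2 in that sum leans on 1 marker, Vtn. It was at 12.34 log2 CPM in DG 1 and 12.59 in DG 2, beside sums of 10280 and 11212 CPM. SVZ 1 was the SVZ library with the highest sums of pericyte and endothelial markers. Itga1 and Itga4 had their highest SVZ level there, and Itga7 its lowest. The part of these cells in the result was not tested.

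Itga8, Itgav and Itga5 were also higher in DG. Itga8, an alpha partner of Itgb1 that recognises the short RGD motif of matrix proteins, was at 3.80, 3.72, 4.11, 3.33 and 3.495 log2 CPM in DG 1 to 5 and -0.14, -1.39, 0.23 and -1.12 in SVZ 1 to 4. The groups did not overlap, and the difference was 19.7-fold (log2 fold change 4.30, SE 0.34, adjusted p = 1.06e-06). Itgav, the alpha subunit shared by the vitronectin receptors and by the receptor with Itgb8 that activates latent TGF-beta, was at 5.77, 6.04, 6.06, 5.57 and 6.22 log2 CPM in DG 1 to 5 and 3.74, 3.59, 3.45 and 3.99 in SVZ 1 to 4. It was higher in DG, 4.72-fold (log2 fold change 2.24, SE 0.16, adjusted p = 4.89e-07), with no overlap and with a spread between libraries of under 1 log2 unit in each region. Itga5, the alpha subunit of the classical fibronectin receptor, was at 3.01, 2.63, 2.84, 2.500 and 2.02 log2 CPM in DG 1 to 5 and -0.30, 0.79, 0.51 and 0.78 in SVZ 1 to 4, which is low in both regions but without overlap (log2 fold change 2.15, SE 0.29, adjusted p = 5.94e-05).

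Itga6, a laminin receptor subunit used as a marker of neural stem cells, stood at 5.20, 5.08, 5.74, 5.13 and 5.34 log2 CPM in DG 1 to 5 and 2.89, 2.55, 2.29 and 3.82 in SVZ 1 to 4. All DG libraries lay above the SVZ libraries, among which SVZ 4 was the highest, and the gene was higher in DG, 5.32-fold (log2 fold change 2.41, SE 0.28, adjusted p = 1.75e-05). Itga9 (2.64) and the laminin receptor subunit Itga3 (1.16) were also higher in DG. Itga2b, the alpha subunit of platelets, did not pass the test (-0.47, adjusted p = 0.109).

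Itgam, which pairs with Itgb2 as the integrin of microglia and other myeloid cells, was the other alpha subunit that was not called. It was named after its values were seen. It stood at 5.03, 3.004, 4.07, 3.58 and 3.82 log2 CPM in DG 1 to 5 and 3.48, 4.40, 4.55 and 5.39 in SVZ 1 to 4, with overlap between the regions (log2 fold change -0.55, SE 0.42, adjusted p = 0.258). The level followed the library: the order of the DG libraries, highest to lowest, was DG 1, 3, 5, 4 and 2, and that of SVZ was 4, 3, 2 and 1. The sum of 7 microglia markers had the same order, with 590.9, 187.1, 478.5, 316.6 and 398.1 CPM in DG 1 to 5 and 175.2, 453.5, 626.1 and 961.8 CPM in SVZ 1 to 4. In DG, the sum of 5 markers of border macrophages, another myeloid cell type, had that order too (841.9, 188.3, 658.4, 351.2 and 585.4 CPM in DG 1 to 5). In SVZ its order differed (6.93, 16.1, 3.772 and 12.73 CPM in SVZ 1 to 4). The part of either cell type in the result was not tested. Because 68.7% of the exon length of Itgam overlaps the predicted gene Gm49368 on the same strand, its count is uncertain.

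Among 7 integrin beta subunits, 4 were higher in DG (57.1%, against 32.9% of all genes), none in SVZ and 3 were not called, with a median log2 fold change of 0.80. The share called either way was below the 66.6% of all genes. Itgb1 (ENSMUSG00000025809, chromosome 8, 128685654 to 128733200, plus strand), the beta subunit shared by most of the matrix receptors above, stood at 7.82, 7.79, 7.64, 7.75 and 7.77 log2 CPM in DG 1 to 5 and 6.98, 6.69, 6.497 and 7.03 in SVZ 1 to 4. The regions did not overlap, and the difference was 1.94-fold (log2 fold change 0.95, SE 0.11, adjusted p = 2.44e-05), below that of each of the 9 called alpha subunits. Itgb8, the partner of Itgav on astroglia, was at 6.91, 6.72, 6.74, 6.73 and 6.91 log2 CPM in DG 1 to 5 and 6.18, 5.94, 5.92 and 5.97 in SVZ 1 to 4, 1.74-fold higher in DG (log2 fold change 0.80, SE 0.09, adjusted p = 1.85e-05) with a narrow spread in both regions. Itgb5, another partner of Itgav, was at 5.69, 5.70, 5.59, 5.64 and 5.40 log2 CPM in DG 1 to 5 and 2.60, 3.15, 3.61 and 4.22 in SVZ 1 to 4, 4.63-fold higher in DG (log2 fold change 2.21, SE 0.26, adjusted p = 2.41e-05). Its SVZ values spread over 1.63 log2 units, from SVZ 1 to SVZ 4, and its DG values over 0.30.

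Itgb7, a leukocyte partner of Itga4, was also higher in DG (2.95), with 13 to 63 reads in the SVZ libraries. It exceeded 1 CPM in at least 3 libraries in DG only, so this direction was favoured by how it entered the table. Markers of border macrophages, leukocytes of the brain's surfaces and vessels, summed to 188.3 to 841.9 CPM in DG and 3.772 to 16.1 CPM in SVZ (5 of 5 measured, none at 0), and their part in the result was not tested. Itgb3, the partner of Itgav and Itga2b, stood at 1.08, 0.72, 0.96, 0.24 and 1.497 log2 CPM in DG 1 to 5 and 0.70, 0.97, -0.13 and 0.76 in SVZ 1 to 4. These values are near 1 CPM and overlap, and Itgb3 was not called (log2 fold change 0.32, SE 0.32, adjusted p = 0.386). Itgb2, the beta subunit of leukocytes, was at 4.36, 2.18, 3.82, 2.93 and 3.43 log2 CPM in DG 1 to 5 and 2.57, 4.02, 4.49 and 4.93 in SVZ 1 to 4, with the same order of libraries as Itgam in both regions. It was named after its values were seen and did not pass the test (log2 fold change -0.66, SE 0.51, adjusted p = 0.266), but did so without SVZ 1 (adjusted p = 0.0401). Itgb4, which pairs only with Itga6, did not pass the test (-0.70, adjusted p = 0.117) but was called higher in SVZ without SVZ 4 (adjusted p = 0.0387).

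The summed level of the syndecans per kilobase of exon was 5.51 times as high in DG as in SVZ (5.66 times without length scaling). With a median log2 fold change of 2.59, 3 of the 4 genes were called on the DG side (32.9% of all genes) and 1 on the SVZ side (33.7% of all genes). Sdc4 (ENSMUSG00000017009, chromosome 2, 164424247 to 164443887, minus strand), a syndecan of focal adhesions, stood at 9.22, 8.99, 9.48, 9.38 and 9.67 log2 CPM in DG 1 to 5 and 6.36, 7.32, 7.33 and 6.84 in SVZ 1 to 4. No library overlapped, and the level was higher in DG, 5.22-fold (log2 fold change 2.38, SE 0.20, adjusted p = 1.78e-06). Sdc2 was at 9.03, 9.16, 8.79, 9.12 and 8.70 log2 CPM in DG 1 to 5 and 5.92, 6.27, 6.39 and 6.06 in SVZ 1 to 4, 6.96-fold higher in DG (log2 fold change 2.80, SE 0.13, adjusted p = 3.23e-08). Sdc3, the syndecan known from neural tissue, was at 7.63, 7.44, 7.41, 6.96 and 7.40 log2 CPM in DG 1 to 5 and 4.65, 4.31, 4.24 and 4.53 in SVZ 1 to 4, 7.64-fold higher in DG (log2 fold change 2.93, SE 0.14, adjusted p = 4.32e-08). Within each region the libraries of Sdc2 and Sdc3 stayed within 0.68 log2 units of each other, far less than the difference between regions. Beside these 3 genes, the 7 astrocyte and radial glia markers summed to 16508 to 25017 CPM in DG and 1716 to 3337 CPM in SVZ. Their part in the result was not tested.

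Sdc1 (ENSMUSG00000020592, chromosome 12, 8771323 to 8793715, plus strand), known from epithelial and plasma cells, went the other way. It stood at 1.67, 1.99, 1.68, 1.29 and 0.96 log2 CPM in DG 1 to 5 and 3.41, 3.91, 3.52 and 3.504 in SVZ 1 to 4, so that all SVZ libraries lay above all DG libraries. The level was 4.19-fold higher in SVZ (log2 fold change -2.07, SE 0.23, adjusted p = 1.42e-05), and it was the only called member of the set at 4-fold or more on that side. In absolute terms Sdc1 remained low, with 79 to 142 reads in the DG libraries and 339 to 467 in the SVZ libraries. Markers of ependyma, the ciliated epithelium of the ventricle wall, summed to 7.085 to 17.4 CPM in DG and 80.15 to 195.9 CPM in SVZ (5 of 5 measured), and 5 cell cycle markers to 703 to 1079 CPM in DG and 3115 to 3603 CPM in SVZ. Their part in the result was not tested.

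**Figure D2:**
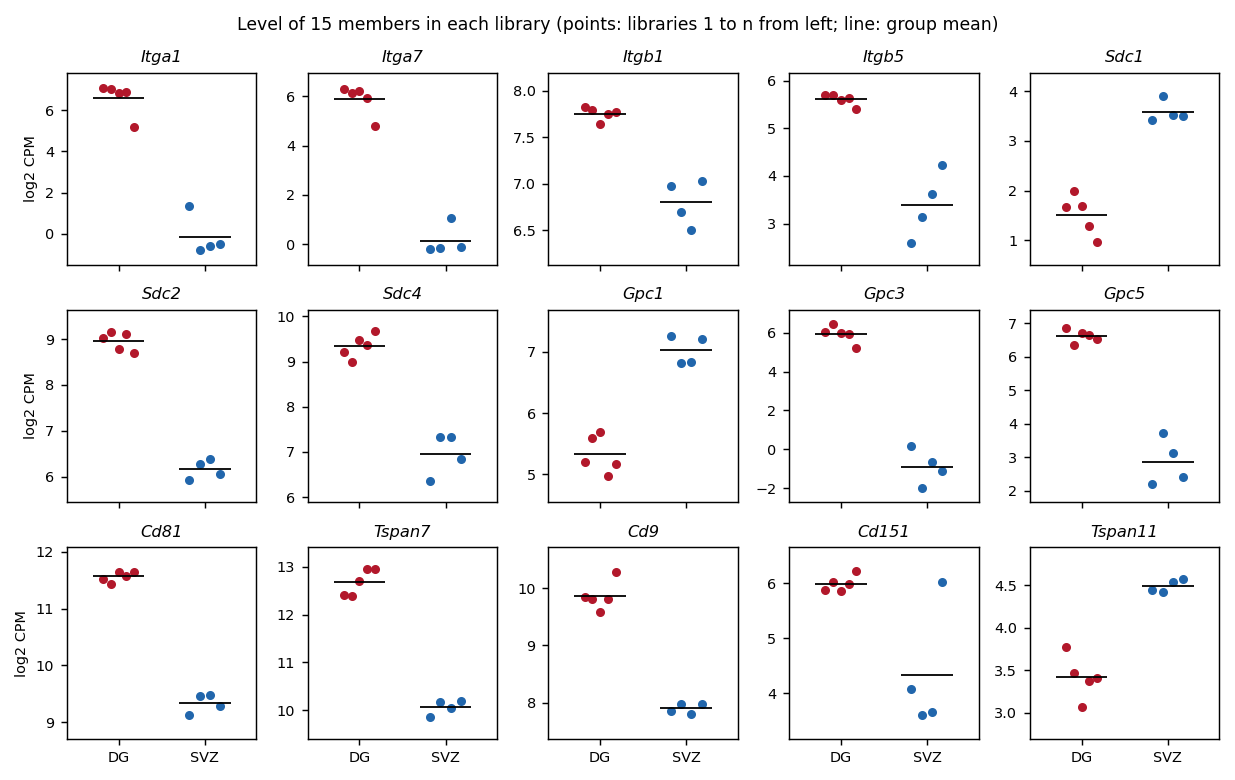
Log2 CPM (y axis) of selected members in each library (points, in library order from the left) with a line at the group mean; each panel has its own y axis. Sdc1, Gpc1 and Tspan11 lie higher in SVZ, the other 12 genes lie higher in DG, and in Cd151 the point of SVZ 4 (6.02) lies among the DG points.

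The 6 glypicans held 3 genes higher in DG, 2 higher in SVZ and 1 not called (median log2 fold change 1.67). Among all genes, 32.9% were higher in DG and 33.7% higher in SVZ, so the SVZ share was near that of all genes. Gpc3 exceeded 1 CPM in at least 3 libraries in DG only, and Gpc2 did so in SVZ only. The direction of each was favoured by how it entered the table. The shares of all genes were not restricted in this way. Gpc3 (ENSMUSG00000055653, chromosome X, 52272426 to 52613950, minus strand), a glypican that binds Hedgehog and other growth factors and restrains body growth, had the largest fold change of the 53 genes. Its mean level is under the limit of the rule for named genes, and it was named after its values were seen. It stood at 6.06, 6.44, 5.98, 5.95 and 5.24 log2 CPM in DG 1 to 5 and 0.17, -1.98, -0.66 and -1.12 in SVZ 1 to 4, with 1555 to 3121 reads in the DG libraries and 7 to 35 in the SVZ libraries. The regions did not overlap, and the difference was 114-fold (log2 fold change 6.83, SE 0.38, adjusted p = 1e-07). The pericyte, fibroblast and oligodendrocyte precursor markers were higher in the same libraries, and their part in the results for glypicans was not tested. Pdgfra is in both the fibroblast and the oligodendrocyte precursor list, so these sums are not independent.

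Gpc5 was at 6.85, 6.34, 6.71, 6.63 and 6.54 log2 CPM in DG 1 to 5 and 2.21, 3.72, 3.14 and 2.42 in SVZ 1 to 4, 13.4-fold higher in DG (log2 fold change 3.74, SE 0.27, adjusted p = 5.39e-07), with SVZ 1 and SVZ 4 the lowest libraries. Gpc6, a glypican that astrocytes are known to release, was at 5.97, 6.14, 6.002, 5.97 and 5.54 log2 CPM in DG 1 to 5 and 3.42, 3.52, 3.59 and 3.19 in SVZ 1 to 4, 5.64-fold higher in DG (log2 fold change 2.49, SE 0.14, adjusted p = 1.15e-07), with DG 5 the lowest of DG but still above every SVZ library. Gpc4, another glypican released by astrocytes, was at 3.46, 3.68, 5.32, 3.65 and 3.23 log2 CPM in DG 1 to 5 and 2.79, 3.11, 3.36 and 2.85 in SVZ 1 to 4. Here DG 3 stood far above the rest, and the gene did not pass the test (log2 fold change 0.84, SE 0.37, adjusted p = 0.0618); it passed without DG 3 (adjusted p = 0.0396, log2 fold change 0.48) and without DG 5 (adjusted p = 0.0365).

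On the SVZ side, Gpc1 (ENSMUSG00000034220, chromosome 1, 92831645 to 92860779, plus strand), a glypican of the nervous system and other tissues, stood at 5.21, 5.60, 5.70, 4.97 and 5.17 log2 CPM in DG 1 to 5 and 7.26, 6.83, 6.83 and 7.22 in SVZ 1 to 4. All SVZ libraries lay above all DG libraries, by 3.26-fold on average (log2 fold change -1.71, SE 0.17, adjusted p = 5.38e-06). Of its exon length, 18.9% overlaps that of Ankmy1, and the kit does not mark the strand. Gpc2, known from growing axons of young neurons, was at -0.49, 0.01, -1.18, -0.48 and -1.10 log2 CPM in DG 1 to 5 and 0.29, 0.56, -0.03 and 1.48 in SVZ 1 to 4. The regions overlapped by SVZ 3 and DG 2, and the call was on the SVZ side (log2 fold change -1.23, SE 0.38, adjusted p = 0.0146). The reads were few (15 to 90 per library), and 55.6% of the exon length of Gpc2 overlaps that of Gm43720 on the same strand.

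Of 21 tetraspanins, 18 were higher in DG (85.7%, against 32.9% of all genes), 2 higher in SVZ (9.52%, against 33.7% of all genes) and 1 was not called (median log2 fold change 1.68). In 16 of them all DG libraries lay above all SVZ libraries (29.7% of all genes), and 7 were called at 4-fold or more in DG (33.3%, against 12.4% of all genes). Both counts include Tspan17 and Tspan33, which exceeded 1 CPM in at least 3 libraries in DG only. The direction of these 2 genes was favoured by how they entered the table. Tspan7 (ENSMUSG00000058254, chromosome X, 10485158 to 10596605, plus strand), an X-linked tetraspanin of neurons and astroglia, stood at 12.41, 12.39, 12.71, 12.95 and 12.94 log2 CPM in DG 1 to 5 and 9.86, 10.19, 10.05 and 10.19 in SVZ 1 to 4. It was higher in DG, 6.09-fold (log2 fold change 2.61, SE 0.14, adjusted p = 7.51e-08) and, per kilobase of exon, stood at percentile 99.9 of all genes in DG and 98.3 in SVZ. Cd81 (ENSMUSG00000037706, chromosome 7, 143052739 to 143067934, plus strand), a partner of the immunoglobulin superfamily protein Igsf8, was at 11.53, 11.43, 11.64, 11.57 and 11.65 log2 CPM in DG 1 to 5 and 9.13, 9.46, 9.47 and 9.29 in SVZ 1 to 4. No libraries overlapped, and the spread was at most 0.34 log2 units in either region. The difference was 4.67-fold (log2 fold change 2.23, SE 0.09, adjusted p = 2.21e-08). Cd9, a close relative of Cd81 and partner of Ptgfrn, was at 9.84, 9.80, 9.59, 9.81 and 10.29 log2 CPM in DG 1 to 5 and 7.85, 7.97, 7.79 and 7.98 in SVZ 1 to 4, 3.91-fold higher in DG (log2 fold change 1.97, SE 0.12, adjusted p = 2.34e-07), with DG 5 the highest. Of the exon length of Cd9, 10.7% overlaps that of Gm26728. The astrocyte and radial glia markers and the oligodendrocyte precursor markers, given above, were higher in the same libraries, and their part in the results for tetraspanins was not tested.

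Cd63, Cd82, Tspan4 and Cd151 were higher in DG as well. Cd63, a tetraspanin of late endosomes and of the vesicles they release, was at 9.30, 9.19, 9.18, 9.37 and 9.57 log2 CPM in DG 1 to 5 and 6.89, 7.34, 7.32 and 7.15 in SVZ 1 to 4, 4.42-fold higher in DG (log2 fold change 2.14, SE 0.12, adjusted p = 8.33e-08). Cd82 was at 7.79, 7.42, 7.59, 7.75 and 7.96 log2 CPM in DG 1 to 5 and 5.18, 5.93, 6.03 and 5.70 in SVZ 1 to 4, 3.98-fold higher in DG (log2 fold change 1.99, SE 0.17, adjusted p = 1.95e-06). Tspan4, known from the trails that migrating cells leave behind, was at 5.14, 4.90, 5.13, 4.88 and 4.83 log2 CPM in DG 1 to 5 and 1.87, 2.07, 2.28 and 2.42 in SVZ 1 to 4, 7.04-fold higher in DG (log2 fold change 2.82, SE 0.15, adjusted p = 7.55e-08), although 13.4% of its exon length overlaps that of Chid1. In these 3 genes no DG library came within 1 log2 unit of any SVZ library. Cd151, which binds laminin receptor integrins, was at 5.89, 6.02, 5.86, 5.996 and 6.22 log2 CPM in DG 1 to 5 and 4.07, 3.60, 3.66 and 6.02 in SVZ 1 to 4. SVZ 4 lay inside the DG range and the other SVZ libraries well below it. The gene was called higher in DG (log2 fold change 1.66, SE 0.41, adjusted p = 0.00404), and without SVZ 4 the log2 fold change was 2.22 (adjusted p = 9.85e-07).

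The other tetraspanins higher in DG had log2 fold changes of 0.50 to 2.64. They were Tspan17 (2.64), Tspan33 (2.30), Tspan18 (2.20), Tspan15 (1.91), Tspan12 (1.68), Tspan9 (1.63), Tspan2 (1.09), Tspan3 (1.05), Tspan31 (0.55), Tspan14 (0.51) and Tspan6 (0.500). Tspan12, the co-receptor through which norrin acts on vessels, was the most abundant of these in DG, with a level of 150 CPM per kilobase of exon against 99.2 for Tspan31. Tspan2, a tetraspanin of oligodendrocytes, overlapped between the regions, and its call (adjusted p = 0.0199) was lost without SVZ 1 (adjusted p = 0.0512). Beside it, 5 markers of mature oligodendrocytes summed to 2115 to 3936 CPM in DG and 1206 to 2489 CPM in SVZ, and their part in the result was not tested. Tspan31 overlaps Cdk4 over 29.2% of its exon length on the opposite strand. Tspan13 was not called (0.87, adjusted p = 0.0682), with DG 3 the highest of all libraries (7.85 log2 CPM) and DG 5 the lowest of DG (5.60); it passed without DG 5 (adjusted p = 0.0121).

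Tspan11 and Tspan5 were higher in SVZ. Tspan11 was at 3.78, 3.47, 3.07, 3.37 and 3.41 log2 CPM in DG 1 to 5 and 4.45, 4.42, 4.53 and 4.57 in SVZ 1 to 4, and each SVZ library lay above each DG library (2.10-fold, log2 fold change -1.07, SE 0.15, adjusted p = 8.16e-05). Tspan5 was at 4.86, 5.35, 5.76, 4.996 and 5.12 log2 CPM in DG 1 to 5 and 6.10, 5.55, 5.67 and 6.28 in SVZ 1 to 4, with DG 3 inside the SVZ range. Its difference was 1.61-fold (log2 fold change -0.68, SE 0.20, adjusted p = 0.0114), and the call was lost without DG 5 and SVZ 1 together (adjusted p = 0.0621). Tspan5 belongs with Tspan14, Tspan15, Tspan17 and Tspan33 to the tetraspanins that carry the protease Adam10 to the surface, so that this small group held members called in both directions. The 6 neuroblast markers, given above, were also higher in SVZ, and their part in the result was not tested.

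Among the remaining genes, Dag1 (ENSMUSG00000039952, chromosome 9, 108204634 to 108263958, minus strand), which encodes both chains of dystroglycan, a laminin receptor of astrocyte endfeet and muscle, stood at 6.62, 6.63, 6.49, 6.54 and 6.45 log2 CPM in DG 1 to 5 and 5.51, 5.24, 5.29 and 5.59 in SVZ 1 to 4. It was higher in DG, 2.21-fold (log2 fold change 1.14, SE 0.10, adjusted p = 2.47e-06), without overlap. Cd44, a hyaluronan receptor, was at 2.81, 3.02, 2.77, 2.66 and 3.32 log2 CPM in DG 1 to 5 and 1.79, 2.06, 2.20 and 1.76 in SVZ 1 to 4, 1.95-fold higher in DG (log2 fold change 0.97, SE 0.19, adjusted p = 0.00101), also without overlap and at a low level. Itgb3bp, whose product is part of the inner kinetochore as well as a partner of the Itgb3 tail, stood at 3.65, 3.92, 3.67, 4.26 and 4.35 log2 CPM in DG 1 to 5 and 4.36, 4.48, 4.40 and 4.52 in SVZ 1 to 4. It was called higher in SVZ (log2 fold change -0.47, SE 0.17, adjusted p = 0.0271), with only 0.017 log2 units between the nearest libraries. That call was lost on leaving out DG 1 (adjusted p = 0.0642), DG 3 (0.0557), SVZ 2 (0.059) or SVZ 4 (0.0562) and with TMM scaling (adjusted p = 0.0533), and 8.59% of its exon length overlaps that of Pgm1. Itgb1bp1, which binds the cytoplasmic tail of Itgb1, did not pass the test (0.25, adjusted p = 0.165).

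Summed per family and divided by exon length, levels differed for each of the 5 families. The tetraspanins had the highest sum, at 3261 ± 315 CPM per kilobase in DG and 849 ± 67.6 in SVZ, a ratio of 3.84. Syndecans had 430 ± 27.7 and 78.0 ± 17.6, with the ratio of 5.51. Integrin alpha subunits had 35.5 ± 6.30 and 8.87 ± 2.88 (ratio 4.01), and beta subunits had 83.5 ± 4.49 and 43.8 ± 6.995 (ratio 1.91). Glypicans had 69.7 ± 11.1 and 32.8 ± 2.96 (ratio 2.12). In all 5 the regions did not overlap (exact two-sided permutation test over the libraries, p = 0.00794 for 4 families and 0.0159 for glypicans; adjusted over the 5 families, p = 0.00992 and 0.0159). Without length scaling the alpha ratio was 6.19, above the syndecan ratio of 5.66.

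The make-up of a family was then described as each gene's share of its family's summed level per kilobase, which a change common to the whole family leaves as it is. Shares were tested for the 28 genes with at least 5% in either region, by exact two-sided permutation of the 9 libraries, and 18 of 28 differed after adjustment over the 28. The smallest p that this test can give is 0.00794, or 0.0286 with 4 libraries against 4.

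Glypicans exchanged their leading member. In DG, Gpc3 made up 33.4% ± 6.27 of the glypican sum and Gpc5 32.4% ± 6.15, whereas in SVZ Gpc1 alone made up 77.8% ± 5.90. The share of Gpc1 was 9.21% to 13.2% in the DG libraries and 72.3% to 83.3% in the SVZ libraries, a difference of -66.4 points for DG minus SVZ (exact permutation test, adjusted p = 0.0159). Gpc3 made up at most 1.14% in any SVZ library (mean 0.65% ± 0.38, adjusted p = 0.0159, exact permutation). It exceeded 1 CPM in at least 3 libraries in DG only, so its larger DG share was favoured by how it entered the table. Gpc6 made up 13.7% in DG and 5.18% in SVZ (adjusted p = 0.0159, exact permutation), while the share of Gpc4 was 8.86% and 9.62% (difference -0.77 points, adjusted p = 0.872, exact permutation).

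Integrin alpha subunits also differed in make-up. Itga7 led in DG with 21.2% ± 4.75 (1.75% ± 0.99 in SVZ), followed by Itgav with 16.8% and Itga1 with 15.9% ± 5.21 (0.80% ± 0.89 in SVZ). Itgam led in SVZ with 52.2% ± 12.6, against 9.14% ± 3.99 in DG, although its level did not pass the test between the regions. The count of Itgam is uncertain, since 68.7% of its exon length overlaps Gm49368, and the SVZ shares of the other alpha subunits depend on it. Itga4, Itga8 and Itga2b also differed in share (exact permutation, adjusted p = 0.0159 each; adjusted p = 0.0296 for Itga1), whereas Itgav (2.45 points, adjusted p = 0.569) and Itga6 (2.80 points, adjusted p = 0.242) did not pass. Itga1, Itga4, Itga7 and Itga8 exceeded 1 CPM in at least 3 libraries in DG only. Their larger DG shares were thus favoured by how they entered the table. Among beta subunits, Itgb1 made up 63.4% ± 2.21 in DG and 63.2% ± 7.65 in SVZ (0.25 points, adjusted p = 0.968, exact permutation). Itgb5 had a larger share in DG (16.5% against 7.17%, adjusted p = 0.0159) and Itgb2 in SVZ (13.8% against 4.46%, adjusted p = 0.0417, exact permutation). The latter did not pass without SVZ 2 (adjusted p = 0.0882, exact permutation), SVZ 3 or SVZ 4 (0.0833 each).

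The other 2 families kept their leading genes. Sdc4 was first in both regions, with 59.9% ± 6.87 of the syndecan sum in DG and 64.3% ± 5.08 in SVZ, and Sdc2 second with 33.4% and 26.6%. None of the 3 tested syndecan shares passed the exact permutation test (adjusted p = 0.133 to 0.38), which does not show that they were alike. Cd81, Tspan7 and Cd9 were the first 3 tetraspanins in both regions. Cd81 made up 32.4% ± 1.69 in DG and 26.6% ± 1.31 in SVZ, and Tspan7 28.7% ± 3.03 and 17.98% ± 0.89 (adjusted p = 0.0159 each, exact permutation). Cd9 had 14.2% and 13.8% (adjusted p = 0.812). Tspan31 and Tspan6, at 3.06% and 3.01% in DG, had larger shares in SVZ (8.02% and 8.14%, adjusted p = 0.0159 each, exact permutation). The share of Tspan31 is uncertain, since 29.2% of its exon length overlaps Cdk4, which had 22294 reads per library on average. Without DG 1, DG 2, DG 4 or DG 5, no share passed after adjustment (lowest adjusted p = 0.0533).

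**Figure D3:**
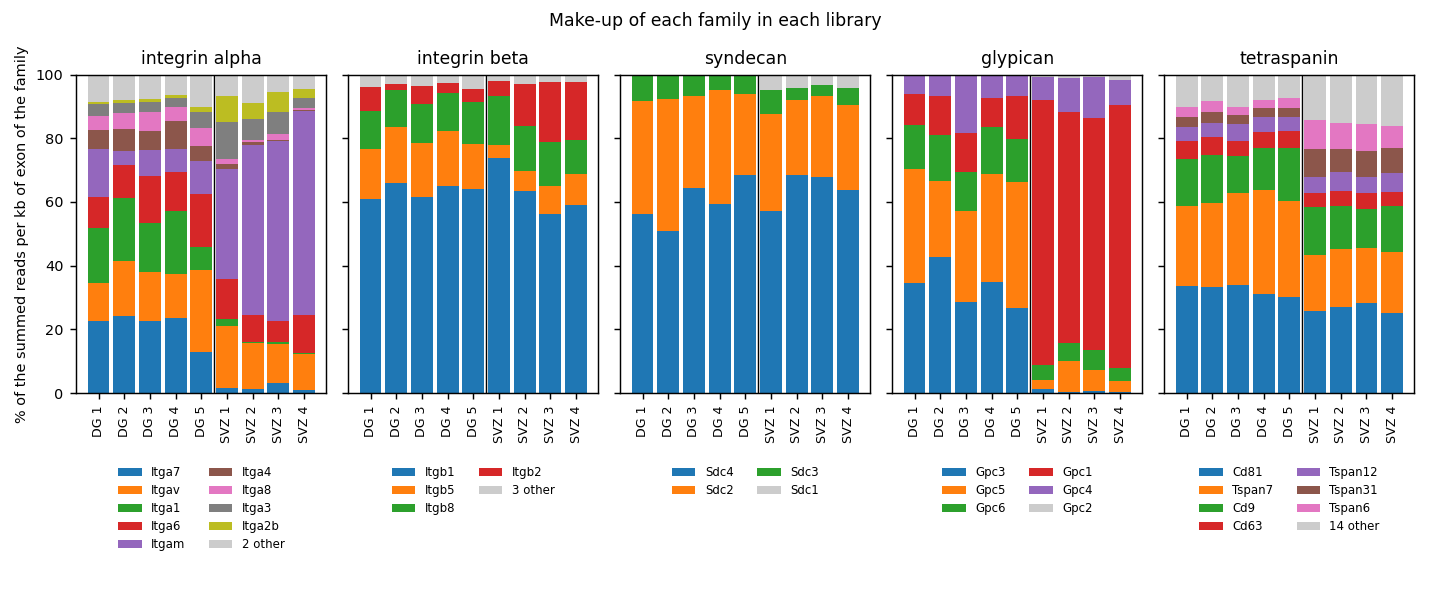
Share of each gene in its family's summed reads per kilobase of exon (stacked bars, y axis in %), 1 bar per library, with a line between DG and SVZ libraries. Gpc1 fills 72.3% to 83.3% of the glypican bars in SVZ and 9.21% to 13.2% in DG, Itgam fills most of the integrin alpha bars in SVZ 2 to 4, and Itgb1 fills more than any other beta subunit in all 9 libraries.

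Genes that work with these receptors were taken from lists chosen by function, with earlier results of these data known. Their counts are therefore not independent support. Some of these genes had a mean under 0 log2 CPM (1 CPM) in 1 region. In SVZ these included Has2 at -3.54, Col1a1 at -2.28, Icam2 at -1.44, Sntb2 at -1.25, Hspg2 at -1.16, Xylt1 at -0.46 and Extl1 at -0.26. In DG they included Notum at -0.61. The direction of such genes may have been favoured by how they entered the table, and the shares of all genes were not restricted in this way. For comparison, 32.9% of all genes were higher in DG, 33.7% higher in SVZ and 66.6% called either way. Of 28 measured intracellular partners of integrins, 20 were higher in DG, 2 higher in SVZ and 6 not called (median log2 fold change 1.17, against -0.075 for all genes). Vcl (vinculin, which ties integrins to actin) was higher by 3.47 (SE 0.18, adjusted p = 7.09e-08), Tns1 (tensin) by 3.99 and the kindlin gene Fermt2 by 1.93. Git1 (-0.72) and Arhgef7 (-0.62), which encode partners in a signalling complex at focal adhesions, were higher in SVZ. Of 25 measured matrix proteins and other outside partners of these receptors, 22 were higher in DG, none in SVZ and 3 not called (median 3.61). Col4a1, a collagen of basement membranes, was higher by 4.42 (SE 0.16, adjusted p = 1.05e-08), the integrin ligand Spp1 by 6.30 and Vtn (vitronectin), which is also among the pericyte markers, by 7.19. The pericyte, endothelial and fibroblast markers were all higher in DG libraries too, with 6 fibroblast markers at 646.4 to 1386 CPM in DG and 24.69 to 86.04 CPM in SVZ, and their part in the result was not tested. Col1a1 and Col1a2 are in both the fibroblast list and the list of matrix partners.

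The enzymes that build and edit heparan sulfate, the chain on syndecans and glypicans, had a smaller median difference than the matrix partners. Of 21 measured genes, 13 were higher in DG, 1 higher in SVZ and 7 not called (median log2 fold change 0.69). The rate of calls was near the 66.6% of all genes, of which 32.9% were higher in DG and 33.7% in SVZ. The calls in this list lay mostly on the DG side. Extl2 was higher in DG by 1.45 (SE 0.11, adjusted p = 7.1e-07), the sulfatase gene Sulf2 by 3.07 and the chain-starting xylosyltransferase gene Xylt1 by 3.43. The chain-extending enzyme gene Ext1 was higher in SVZ (-0.49, adjusted p = 0.0225), a call that was lost on leaving out DG 4 (adjusted p = 0.0512), SVZ 1 (0.0656) or SVZ 4 (0.0644). Of 5 measured partners of syndecans and glypicans, Sdcbp (syntenin) was higher in DG by 0.30, Notum, which cuts glypicans from their anchor, was higher in SVZ (-1.89, adjusted p = 0.000827), and 3 were not called (median -0.043). Calls in either direction were rarer in this short list than among all genes.

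For dystroglycan, 17 of 22 measured genes of its complex and its glycosylation were higher in DG (median 1.02), as were 32.9% of all genes. Dmd (dystrophin) was higher by 2.52 (SE 0.17, adjusted p = 3.8e-07), Sspn (sarcospan) by 1.98 and the glycosyltransferase gene B4gat1 by 1.63. Of 7 measured tetraspanin partners and tetraspanins with other names, 4 were higher in DG, none in SVZ and 3 not called (median 0.76). The rate of calls in these 7 was below the 66.6% of all genes. Among them were Igsf8, the partner of Cd81 and Cd9 (1.45, SE 0.15, adjusted p = 8.51e-06), Igsf3 (0.76) and Ptgfrn (1.09). Adam10, the protease carried by Tspan5 and its relatives, was not called (0.03).

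**Figure D4:**
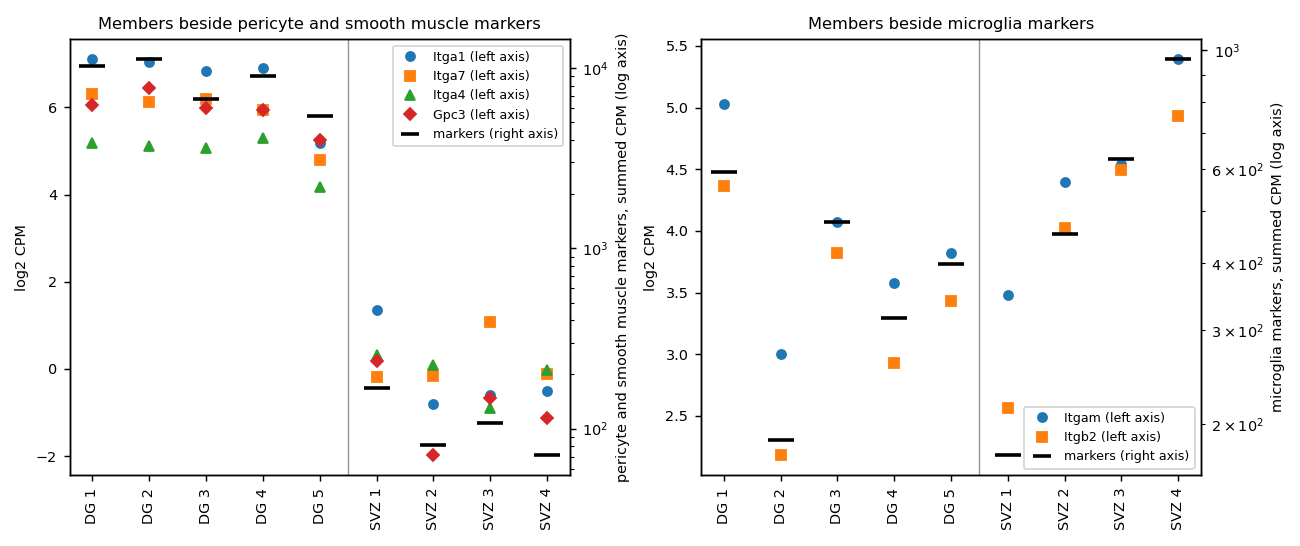
Log2 CPM of members (points, left axes) beside the summed CPM of marker lists (black dashes, right log axes) in each library: Itga1, Itga7, Itga4 and Gpc3 with 10 pericyte and smooth muscle markers, and Itgam and Itgb2 with 7 microglia markers. The pericyte sum is 5406 to 11212 CPM in DG and 71.35 to 168.1 CPM in SVZ, and the microglia sum, 187.1 to 590.9 and 175.2 to 961.8 CPM, overlaps between regions as Itgam and Itgb2 do.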

How the data were processed

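RNA-seq libraries of sorted cells were made from 2 tissues (5 DG, 4 SVZ). Per the labels' protocols, full-length cDNA was made with a poly-dT primer, amplified, sheared and built into libraries with chemistry that does not mark the strand, so reads of overlapping genes cannot be told apart. Copies were not tagged with molecular identifiers. STAR, edgeR and mm10 are named for the authors' processing, per the submitters' processing notes. For versions, counter, annotation and low-count filter, the sources used here give nothing.

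The deposited table holds log2 CPM of 14477 genes. As inferred from the values, the authors added 1 read as a prior, adjusted to library size, and scaled to nothing but library totals: this formula gave back the deposited values within 5.33e-14, and reads recovered with it were whole in 100% of values (tolerance 0.001). Every gene exceeded 1 CPM in at least 3 libraries. Intervals on reads would cover counting error only. Fold changes on this scale understate changes of genes with few reads.

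Identifiers were matched to GENCODE M21 symbols (14428 matched, 49 did not), which also gave coordinates, exon lengths and overlaps. The deposited log2 values were fitted with limma 3.58.1 in R 4.3.3 (trend on), DG minus SVZ over all genes, with Benjamini-Hochberg adjustment and a threshold of 0.05. It was tested on simulated data first. Family sums and shares used recovered reads per kilobase of exon and exact permutation tests over libraries. Alternatives were TMM scaling, a prior count of 5 reads, a minimum mean of 3 log2 CPM, limma with voom weights on recovered reads, a replicate block, each library left out in turn, and DG 5 and SVZ 1 left out together, which was chosen after seeing the data. The labels do not say whether equal replicate numbers mark a shared animal, litter or day, so the main fit had no block.

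Members, companion lists and marker lists were chosen with earlier results of these data known. Values in every library are given for 31 members. These are, in each family, up to 3 called members per direction with the largest fold change and a mean of at least 3 log2 CPM, and a fixed set of well-known members. Members named outside this rule are marked as such or given by their fold change. Of each companion list, up to 3 called genes per direction with the smallest adjusted p are named. One gene that this rule takes is not reported here. Promoter windows of 200 bases came from RefSeq (GRCm38.p6). Entries were searched only where their start lay on the same chromosome and strand as the GENCODE gene and near its start, which kept 41 members.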

Additional observations from a re-analysis of the deposited data

Results flagged for a closer look

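In 7 of 106 groups of libraries (53 genes in each of 2 regions), 1 library lay far from the others by Dixon's criterion, which chance meets in about 1 of 20 groups. Of these, 4 concern DG 5. It was the lowest DG library for Itga1 (5.18 log2 CPM, the others 6.84 to 7.10), Itga7 (4.80, the others 5.93 to 6.30), Itga4 (4.18, the others 5.07 to 5.30) and Gpc6 (5.54, the others 5.97 to 6.14). DG 5 also had the lowest sum of pericyte and smooth muscle markers among DG libraries (5406 CPM, the others 6756 to 11212 CPM), and the part of these cells was not tested. SVZ 1 was the highest SVZ library for Itga1 (1.36, the others -0.80 to -0.50), and SVZ 3 for Itga7 (1.08, the others -0.19 to -0.12). DG 3 was the highest DG library for Gpc4 (5.32, the others 3.23 to 3.68).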

How the results depend on the processing

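In 46 of the 53 genes no call changed in any of 15 alternatives, and no fold change moved by over 1.5 times when 1 library was left out. The 7 genes with a changed call were Itgb2, Itgb4, Gpc4, Tspan2, Tspan13, Tspan5 and Itgb3bp. Over the alternatives, 29 to 41 members were higher in DG and 4 to 7 higher in SVZ. The cause of the following changes was not tested unless named. Requiring a mean of 3 log2 CPM removes genes from the test; it left 2938 of all genes higher in DG, 4 integrin alpha subunits and 1 of the other genes higher in DG, and 0 syndecans and 1 glypican higher in SVZ. With the replicate block, 40 members were called on the DG side and 5 on the SVZ side, and 1 tetraspanin was higher in SVZ, since Tspan5 (adjusted p = 0.0619) was no longer called; Tspan2 lost its call (0.0918), and Gpc4 (0.0162) and Tspan13 (0.00461) gained one. The labels do not say whether libraries of the same number share an animal, litter or day. Correlations of deviations from the group mean cannot settle it. They were -0.173 to 0.00727 for same-numbered libraries and -0.159 to 0.233 for other pairs. With TMM scaling, Gpc4 was called (0.0488) and 0 of the other genes were higher in SVZ. Without DG 5 and SVZ 1 together, 39 members and 4509 of all genes were higher in DG and 5 members and 4367 of all genes higher in SVZ, 1 tetraspanin was higher in SVZ (Tspan5 at 0.0621), Tspan2 was not called (0.0983) and Tspan13 was (0.0296). Leaving out 1 library gave 0 to 1 integrin beta subunits and 0 to 1 of the other genes higher in SVZ, and 0 to 18 family shares past the threshold, with 0 when DG 1, DG 2, DG 4 or DG 5 was left out (lowest adjusted p = 0.0533; with 4 libraries against 4 the smallest p before adjustment is 0.0286). Without length scaling, 16 shares passed, and 4 shares that had not passed changed sign: Itga6 (-1.94 points), Itgav (-4.96), Gpc4 (0.63) and Cd9 (-0.73). Leaving out 1 library moved the shares of Itgb1 between -2.07 and 3.77 points, Gpc4 between -3.13 and 0.28 and Cd9 between -0.23 and 1.01. Genes near 1 CPM, such as Gpc2, Itgb3 and Itgb4, rest on few reads, with standard errors of 0.32 to 0.38 on the log2 scale.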

Other observations

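Some members varied between libraries of 1 region in ways that no comparison uses. DG 3 was the highest of the DG libraries for Gpc4 (5.32 log2 CPM), Tspan13 (7.85), Itga6 (5.74), Tspan33 (3.01) and Tspan5 (5.76), and it also had the highest sum of mature neuron markers (706.7 CPM). SVZ 4 was the highest of the SVZ libraries for Cd151 (6.02), Itga6 (3.82), Itgb5 (4.22), Itgb7 (0.98) and Itgam (5.39), and it also had the highest sum of microglia markers (961.8 CPM). Tspan4, which lies next to Cd151 on chromosome 7, was at 2.42 in SVZ 4 and 1.87 to 2.28 in the other SVZ libraries, a smaller distance than that of Cd151. These genes were picked after their values were seen, and no test was run on them.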
